A study of Mus musculus with 10 samples.

Results

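The PYHIN and pyrin-only genes described here are 8 mouse genes, Aim2, Ifi203, Ifi204, Mnda, Mndal, Pyhin1, Pydc3 and Pydc4, chosen by symbol out of 23370 gene symbols in a table of RNA abundance. Where a symbol had several RefSeq transcripts, the one with the highest mean abundance was kept, which concerned Ifi203 and Pydc4 with 2 transcripts each. The cells were mouse embryonic fibroblasts (MEFs), connective tissue cells grown out of embryos, of C57BL/6 background with the genotype H3.3b-HA knock-in: a cDNA for the histone variant H3.3 carrying an HA tag stood in place of the H3f3b locus. All 10 libraries came from such cells, so no library of unmodified cells is part of the comparison. A pretreated arm and a naive arm were each sampled at 0, 1, 2, 4 and 6 h, and the labels give 100 U/ml as the concentration of interferon-beta (IFN-β), an antiviral cytokine. The table's column names mark the pretreated arm as given interferon beforehand (PreIFN). The length and dose of that exposure, and any washout, are not stated in the labels or headers. The labels do not say from which moment the hours run, and they are taken here to run from the addition of IFN-β. No library of unstimulated cells later than 0 h was analysed, so time in culture and stimulation cannot be told apart. Each arm and time had 1 library, and no source says how many cultures or embryos contributed.

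PYHIN proteins join a pyrin domain, which binds other pyrin domains, to one or more HIN domains, which bind DNA. AIM2 recognises double-stranded DNA in the cytosol and, through the adaptor ASC (gene Pycard) and caspase-1 (Casp1), assembles an inflammasome that matures IL-1β and IL-18 and cleaves gasdermin D. The other family members are mostly nuclear or shuttle between nucleus and cytosol, and in mice the family is a cluster of genes known for their induction by interferon. The names Pydc3 and Pydc4 stand for pyrin domain-containing genes, a name for family members described with a pyrin domain but no HIN domain.

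All 8 genes lay on chromosome 1 of the build mm10 (the same assembly as GRCm38), inside 522 kb between positions 173420604 and 173942492, in the order Aim2, Pydc4, Pyhin1, Pydc3, Ifi204, Mndal, Mnda, Ifi203. Aim2, Pyhin1 and Pydc3 were on the plus strand and the other 5 on the minus strand. In RefSeq for GRCm38.p6 the same gene IDs carry the symbols Ifi211 for Mnda, Ifi209 for Pyhin1, Ifi208 for Pydc3 and Ifi213 for Pydc4. Promoter sequences from RefSeq (GRCm38.p6, 250 bases before to 50 after each start site) matched 7 of the 8 genes by gene ID. The 120 bases before the start site are printed below for those 7 and for the neighbouring PYHIN gene BC094916, because they show which promoters share a sequence and which carry the core of the interferon-stimulated response element (ISRE), a DNA element found in promoters of many interferon-induced genes. Capitals mark this core, GAAA followed by any 2 bases and GAAA again, searched on both strands.
Pydc3, chr1:173673545-173673664, plus strand: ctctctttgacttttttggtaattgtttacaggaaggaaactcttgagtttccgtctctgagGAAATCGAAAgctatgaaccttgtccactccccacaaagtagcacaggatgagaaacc
Pydc4, chr1:173599273-173599392, minus strand: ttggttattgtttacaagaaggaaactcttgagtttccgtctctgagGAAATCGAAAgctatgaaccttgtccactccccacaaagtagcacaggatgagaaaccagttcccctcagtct
Mndal, chr1:173880188-173880307, minus strand: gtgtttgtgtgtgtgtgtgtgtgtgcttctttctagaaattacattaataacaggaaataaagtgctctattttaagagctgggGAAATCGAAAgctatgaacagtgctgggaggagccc
Ifi203, chr1:173942493-173942612, minus strand: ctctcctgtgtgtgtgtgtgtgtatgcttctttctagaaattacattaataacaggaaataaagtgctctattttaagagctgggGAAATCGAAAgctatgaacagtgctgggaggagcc
Mnda, chr1:173913047-173913166, minus strand: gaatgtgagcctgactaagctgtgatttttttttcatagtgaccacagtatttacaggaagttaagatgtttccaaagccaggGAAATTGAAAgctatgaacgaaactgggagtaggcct
Pyhin1, chr1:173630739-173630858, plus strand: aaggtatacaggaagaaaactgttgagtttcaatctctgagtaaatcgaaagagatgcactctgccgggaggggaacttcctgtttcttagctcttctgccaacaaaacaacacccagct
BC094916, chr1:173535958-173536077, minus strand: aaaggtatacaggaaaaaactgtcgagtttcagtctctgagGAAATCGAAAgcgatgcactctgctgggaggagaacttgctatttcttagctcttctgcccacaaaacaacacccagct
Aim2, chr1:173420484-173420603, plus strand: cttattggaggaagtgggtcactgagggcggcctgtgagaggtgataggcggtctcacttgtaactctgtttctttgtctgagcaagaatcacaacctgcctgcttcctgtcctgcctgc

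The ISRE core was found in 5 of the 7 promoters, against 3.44% of the 32851 promoters of 300 bases in the table. In Mndal, Ifi203, Pydc3 and Pydc4 the match was the same run, GAAATCGAAA, and in Mnda it was GAAATTGAAA. It began 36 bases before the start site in Mndal, 35 in Ifi203, 37 in Mnda, 58 in Pydc3 and 73 in Pydc4. The RefSeq start site of Mnda was 124 bases from the start of the transcript in the abundance table, that of Pydc3 15 bases and that of Pydc4 2 bases, while the others coincided. The Pyhin1 promoter had 95.4% of its aligned positions in common with that of BC094916, which carries GAAATCGAAA 79 bases before its start site. At the same distance Pyhin1 differs from the searched letters by G1T, counted from the first base of the 10 letters. Aim2 had a single window with 1 difference, A3C, on the minus strand 51 bases before its start site. A window with at most 1 difference is common, being present in 35.4% of the promoters. The gamma-activated sequence, TTCNNNGAA on either strand, was found in none of the 7 promoters and in 8.30% of all promoters. The Mndal and Ifi203 promoters shared 90.7% of aligned positions and those of Pydc3 and Pydc4 89.5%, against a median of 48.9% over the 21 pairs of members. A match is a description of the letters and not evidence of binding.

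The likeness of these genes also bears on how well their reads can be told apart. A transcript of the GENCODE release M21 was matched to 7 members, Ifi203 being the exception. Of the 50-base windows of the Mnda transcript, 72.9% also occurred in transcripts of another gene, most often Ifi205 (44.6%) and Ifi204 (30.0%). The share was 35.1% for Pyhin1, nearly all of it in common with BC094916, 30.2% for Ifi204, 27.2% for Mndal, 26.1% for Pydc3 and 20.1% for Pydc4. Pydc3 had 21.1% of its windows in common with Pydc4. Aim2 had 0.932%. No label or header says whether strand was used or how reads with several alignments were counted. The values of Pydc3 and Pydc4, of Pyhin1 with BC094916, and of Mnda with Ifi205 and Ifi204 are therefore uncertain. So is that of Mndal, with 14.97% of its windows in common with Mnda and 13.25% with Ifi205. For Ifi203 the sharing was not measured.

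Libraries held between 83.9 M and 268.5 M counts. Abundance is given as RPKM, reads per kilobase of transcript scaled to library depth by the authors, which allows levels of different genes to be compared. A gene was tested if it reached 1 RPKM in at least 2 libraries, which 12168 genes did, all 8 members among them. Aim2 reached that level in 2 libraries (pretreated 2 and 4 h), Pyhin1 and Pydc4 in 7 and Pydc3 in 8 of 10, so each of these passed through the libraries in which it was high. Of the fibroblast markers 9 of 9 passed the same filter. Of 10 myeloid markers listed in the data, Cd68 and Cd14 passed (2 genes), and the summed level of the 10 lay between 7.33 and 12.4 RPKM in the pretreated arm and between 6.55 and 8.86 RPKM in the naive arm, Ptprc did not exceed 0.003 RPKM and Emr1 was listed at 0 throughout. No lymphocyte marker passed. In bulk RNA, a change in the share of cells that express a gene and a change in RNA per cell cannot be told apart.

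**Figure D1:**
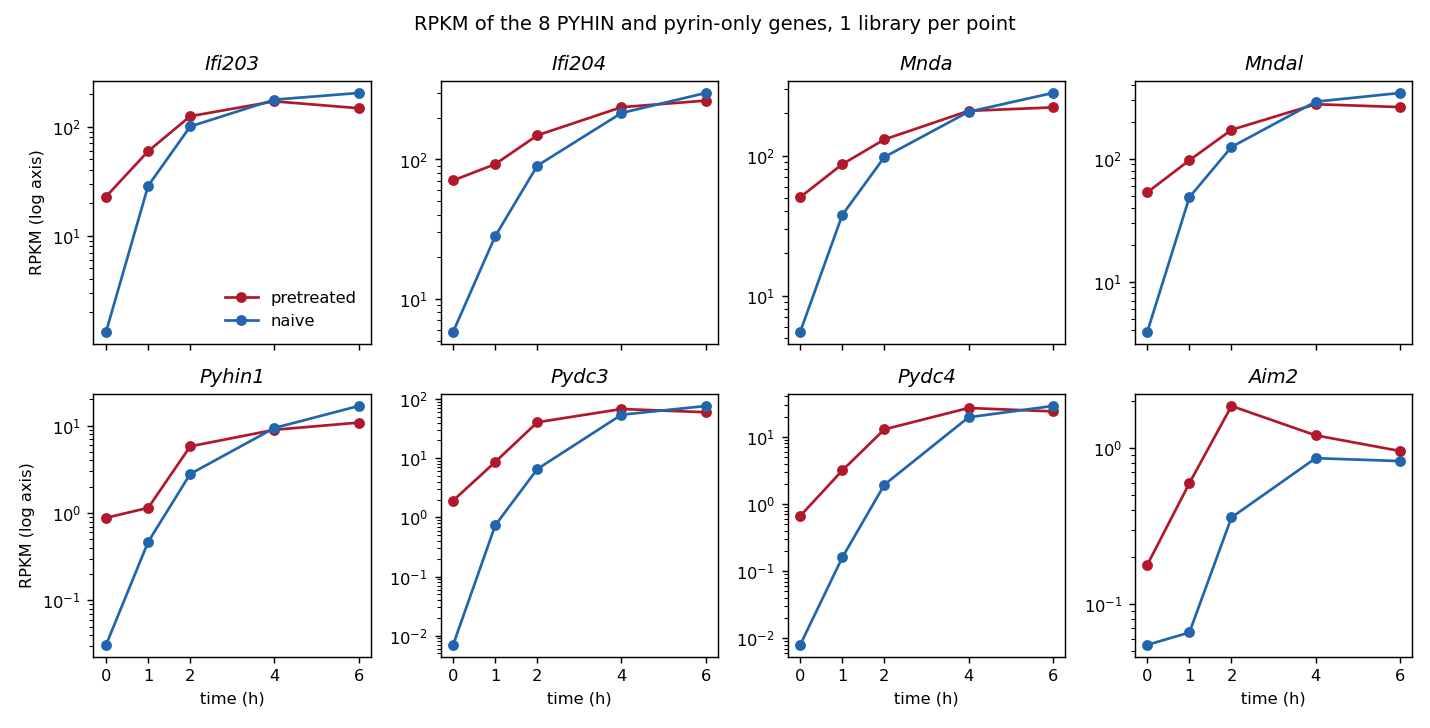
RPKM (log axis) of each of the 8 genes against time in hours, with 1 library per point, pretreated in red and naive in blue. At 0, 1 and 2 h the pretreated point lies above the naive point for 8 of 8 genes, and at 6 h for Aim2 alone.

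Aim2, the DNA sensor of the inflammasome, was the least abundant of the 8 genes. It measured 0.179, 0.597, 1.86, 1.21 and 0.960 RPKM at 0, 1, 2, 4 and 6 h in pretreated MEFs and 0.055, 0.066, 0.360, 0.863 and 0.827 RPKM in naive MEFs. The pretreated level was above the naive level at every time, was highest at 2 h and was lower after that, whereas the naive level was near its maximum at both 4 and 6 h. At 1 h the ratio of pretreated to naive was 9.09 (95% counting interval 6.00 to 14.4, from 220 and 25 counts) and at 2 h 5.17 (4.14 to 6.51). The pretreated 2 h library thus held more Aim2 RNA than any naive library, a position that none of the other 7 members reached. These intervals, exact for Poisson counts, cover counting error only.

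Ifi204, a family member with a pair of HIN domains that has been linked to DNA sensing in mouse cells, was at 70.7, 92.6, 149, 238 and 265 RPKM at 0, 1, 2, 4 and 6 h in pretreated MEFs and at 5.78, 28.1, 90.3, 216 and 301 RPKM in naive MEFs. Pretreated cells before stimulation were between the naive 1 h and 2 h levels, and at 6 h the naive library was higher. Mnda, which carries the name of the human myeloid cell nuclear differentiation antigen, measured 50.5, 86.9, 131, 209 and 221 RPKM in pretreated MEFs against 5.51, 37.7, 97.7, 206 and 280.3 RPKM in naive MEFs at the same times. Mndal, named for its likeness to Mnda, measured 53.3, 97.3, 172, 279 and 264 RPKM in pretreated MEFs and 3.90, 48.6, 125, 292 and 344 RPKM in naive MEFs. Mndal was the most abundant member in naive cells from 1 h on, and Ifi204 in both 0 h libraries.

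Ifi203, another HIN-domain gene of the cluster, measured 22.8, 59.4, 124, 170.3 and 147 RPKM at 0, 1, 2, 4 and 6 h in pretreated MEFs, against 1.31, 28.6, 100.2, 176 and 203 RPKM in naive MEFs. It was the only member whose pretreated 0 h level was below the naive 1 h level. The other 7 members lay between naive 1 h and naive 2 h before stimulation. In the pretreated 0 h library Ifi203 was at 11.2% of its own naive 6 h level and Mndal, whose promoter shares 90.7% of aligned positions with it, at 15.5%.

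Pyhin1, which shares its name with the human gene also called IFIX, measured 0.882, 1.15, 5.81, 8.98 and 10.9 RPKM at 0, 1, 2, 4 and 6 h in pretreated MEFs and 0.031, 0.467, 2.81, 9.42 and 16.8 RPKM in naive MEFs. Between 0 and 1 h the pretreated level went up by a ratio of 1.30 (95% counting interval 1.14 to 1.48), and between 1 and 2 h by 5.06. At 6 h Pyhin1 had the lowest pretreated to naive ratio of the 8 genes, 0.646 (0.630 to 0.662).

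Pydc3 and Pydc4, the pyrin-domain genes, went through the widest ranges, and their reads are partly in common. Pydc3 measured 1.93, 8.65, 40.6, 67.9 and 60.0 RPKM in pretreated MEFs and 0.007, 0.734, 6.57, 54.4 and 76.4 RPKM in naive MEFs at 0, 1, 2, 4 and 6 h. Pydc4 measured 0.663, 3.16, 12.9, 26.9 and 23.9 RPKM in pretreated MEFs and 0.008, 0.160, 1.94, 19.5 and 28.8 RPKM in naive MEFs. Both genes were nearly silent in naive cells at 0 h, with 2 counts each, and were far behind the pretreated level until 2 h. The pretreated to naive ratio of Pydc3 was 269 at 0 h (95% counting interval 74.2 to 2226), 11.8 at 1 h (10.5 to 13.2) and 6.18 at 2 h (5.89 to 6.48). That of Pydc4 was 81.5 at 0 h (22.3 to 677), 19.8 at 1 h (15.3 to 25.9) and 6.66 at 2 h (6.08 to 7.31). By 4 h the ratios were 1.25 and 1.38, and by 6 h both genes were lower in pretreated cells, at 0.785 and 0.831 of the naive level.

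The summed level of the 8 genes shows the course of the family as a whole. It was 201, 349.8, 637, 1000.5 and 993 RPKM at 0, 1, 2, 4 and 6 h in pretreated MEFs and 16.6, 145, 425, 974 and 1251 RPKM in naive MEFs. Ifi203, Ifi204, Mnda and Mndal made up most of it in each library. Pydc3 held 0.958% of the sum in pretreated cells at 0 h, against 0.0422% in naive cells. At 6 h it held 6.04% in pretreated and 6.11% in naive cells.

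Before stimulation, the question was which members an earlier interferon exposure leaves at another level. At 0 h, 8 of 8 members had a higher RPKM in pretreated than in naive MEFs, where 50% of all genes tested did. A fold of 2 or more on the log2(RPKM + 1) scale was reached by 5 of 8, Ifi203, Ifi204, Mnda, Mndal and Pydc3, against 2.56% of all genes (311 of 12168). The median difference was 2.26 for the members and 0 over all genes on that scale, which understates the ratios of the low genes Aim2, Pyhin1, Pydc3 and Pydc4. The ratios were 9.16 (95% counting interval 8.54 to 9.83) for Mnda, 12.2 (11.6 to 13.0) for Ifi204, 13.7 (12.7 to 14.8) for Mndal and 17.4 (15.8 to 19.2) for Ifi203. For Pyhin1 the ratio was 28.9 (15.5 to 60.7) and for Aim2 3.26 (1.77 to 6.49). In edgeR's quasi-likelihood test, in which neighbouring times stand in for replicates, none of the 8 passed the threshold of 0.05 on the adjusted p, against 0.164% of all genes (20 of 12168). Of the 8, 7 had an unadjusted p under 0.05, as did 1214 of 12168 genes. The lowest edgeR adjusted p of the 8 was that of Mndal, 0.122 at a log2 fold change of 3.78 ± 0.70 (SE). DESeq2 on the same model called 6 of 8 higher, all but Aim2 and Pyhin1, and 287 of 12168 genes higher. With no filter on low values edgeR called 4 of 8, and 189 of 20289 genes. With the arms paired by hour (hour as a block, 2 residual degrees of freedom, a fit chosen after seeing the data), edgeR called 6 of 8, all but Aim2 and Pydc4, and 337 of 12168 genes. In that fit the spread comes from the pairs at 1 to 6 h, and the single pair at 0 h is assumed to vary like them. The call at 0 h thus changes with the tool, the filter, the design and the libraries used.

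The pretreated 0 h library also stood apart in other RNAs. The ribosomal precursor Rn45s took 3.90% of its counts and 2.85% of those of pretreated 1 h, against 0.974% to 1.51% in the other 8 libraries. The RNA components of RNase MRP and RNase P, Rmrp and Rpph1, measured 76.0 and 110.2 RPKM there, against 5.98 and 11.9 RPKM in the naive 0 h library. Their part in the difference at 0 h was not tested.

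**Figure D2:**
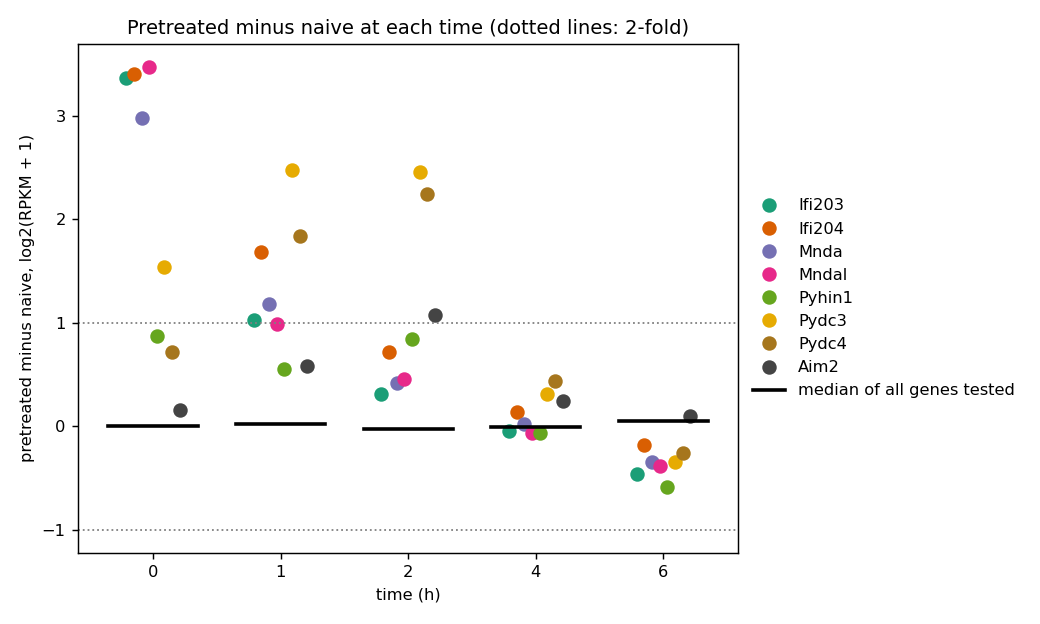
Difference of log2(RPKM + 1), pretreated minus naive, against time in hours for each member, with 1 point per gene and time. Black bars give the median of all 12168 genes tested and dotted lines a fold of 2. The members' median is 2.26 at 0 h and -0.34 at 6 h.

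In the first hours after IFN-β, pretreated cells held more RNA of every member. At 1 h, 8 of 8 had a higher RPKM in pretreated MEFs and 5 of 8 were apart by a fold of 2 or more (1.55% of all genes, 188 of 12168), namely Ifi203, Ifi204, Mnda, Pydc3 and Pydc4. At 2 h, 8 of 8 were again higher and 3 of 8 were apart by a fold of 2 or more (1.55% of all genes, 189 of 12168), which were Aim2, Pydc3 and Pydc4. The 4 abundant genes were all within a fold of 2 by then, at ratios of 1.24 for Ifi203, 1.34 for Mnda, 1.38 for Mndal and 1.65 for Ifi204. On the log2(RPKM + 1) scale Mndal was already under that size at 1 h, at a difference of 0.987. Pyhin1, at a ratio of 2.07 at 2 h, was also under it on that scale. Tested over 1 and 2 h together with edgeR, none of the 8 passed, against 0.304% of all genes (37 of 12168). Aim2, Pydc3 and Pydc4 had an unadjusted p under 0.05, among 1469 of 12168 genes. Aim2 was at a log2 fold change of 2.57 ± 0.80 (SE, edgeR adjusted p = 0.287). It was the only member that DESeq2 called, among 422 of 12168 genes. That model leaves the change between 1 and 2 h in the residual spread. With the arms paired by hour, edgeR called 5 of 8 higher, Aim2, Pydc3, Pydc4, Ifi204 and Pyhin1, and 707 of 12168 genes. There Aim2 was at 2.71 ± 0.27 (SE, edgeR adjusted p = 0.0142), Pydc3 at 3.07 ± 0.28 (adjusted p = 0.0118) and Pydc4 at 3.37 ± 0.39 (adjusted p = 0.0182). Aim2 passed the filter only through the pretreated 2 and 4 h libraries. Each Aim2 test at 1 and 2 h thus draws on a library that let it pass.

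At 4 and 6 h the arms were within a fold of 2 of each other for every member. None of the 8 members was apart by a fold of 2 in either direction, where 0.238% of all genes were higher and 0.131% lower by that fold in pretreated MEFs at 4 h, and 0.156% higher and 0.214% lower at 6 h. At 4 h, 5 of 8 members had a higher RPKM in pretreated MEFs, and at 6 h 1 of 8, Aim2, where 61.6% of all genes tested did. The 6 h ratios of the other 7 ran between 0.646 for Pyhin1 and 0.881 for Ifi204. Over 4 and 6 h together edgeR called none of the 8, against 0.00822% of all genes (1 of 12168). None of the 8 had an unadjusted p under 0.05, where 398 of 12168 genes did. DESeq2 and limma also called none of the 8, against 31 and 1 of 12168 genes. The log2 fold changes lay between -0.45 ± 0.90 (SE, Pyhin1) and 0.32 ± 0.73 (SE, Aim2), each smaller than its own SE. With the arms paired by hour, edgeR called none of the 8 and 2 of 12168 genes. In that fit none of the 8 had an unadjusted p under 0.05, where 1160 of 12168 genes did. The members' SEs were between 0.16 and 0.34.

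Naive cells went through a large induction. Between naive 0 h and naive 4 and 6 h, edgeR called 7 of 8 members higher and none lower, against 6.18% of all genes higher (752 of 12168) and 4.68% lower. In edgeR, Mndal rose by 6.45 ± 0.78 as log2 fold change (SE, adjusted p = 0.00931) and Ifi203 by 7.28 ± 1.03 (adjusted p = 0.0129). Mnda rose by 5.57 ± 0.71 and Ifi204 by 5.59 ± 0.84, at edgeR adjusted p-values of 0.0100 and 0.0142. Pyhin1 rose by 8.84 ± 1.92 (edgeR adjusted p = 0.0329). For Pydc3 and Pydc4 the 2 counts at 0 h make the size uncertain: the naive 6 h to 0 h ratio was 10674 for Pydc3 (95% counting interval 2955 to 88140) and 3538 for Pydc4 (979 to 29213), with edgeR adjusted p-values of 0.0253 and 0.0323. Aim2 missed the threshold at 4.04 ± 1.24 (SE, edgeR adjusted p = 0.0759). Fewer members and fewer genes passed when naive 6 h, naive 4 h, pretreated 4 h or pretreated 6 h was left out. In these fits, in that order, the members' median log2 fold change was 6.75, 6.98, 6.87 and 6.87, against 6.87 with all libraries.

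The steps of the naive course differed among the genes. At 1 h, 4 of 8 were apart from 0 h by a fold of 2 or more (2.02% of all genes higher), which were Ifi203, Ifi204, Mnda and Mndal. The Ifi203 ratio at 1 h was 21.8 (95% counting interval 19.9 to 24.0), against 4.87 (4.59 to 5.17) for Ifi204. At 2, 4 and 6 h it was 7 of 8, all but Aim2, against 3.95%, 5.71% and 6.2% of all genes higher. Aim2 is low against the pseudocount of 1, and its naive 6 h to 0 h ratio was 15.1 (8.76 to 28.6). Pydc3 and Pydc4 went up at every step, by ratios of 8.95 and 12.1 between 1 and 2 h and of 8.28 and 10.1 between 2 and 4 h. Between 2 and 4 h Ifi203 went up by 1.76 and Ifi204 by 2.39. Each step of the naive course was upward for 7 of 8 genes.

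**Figure D3:**
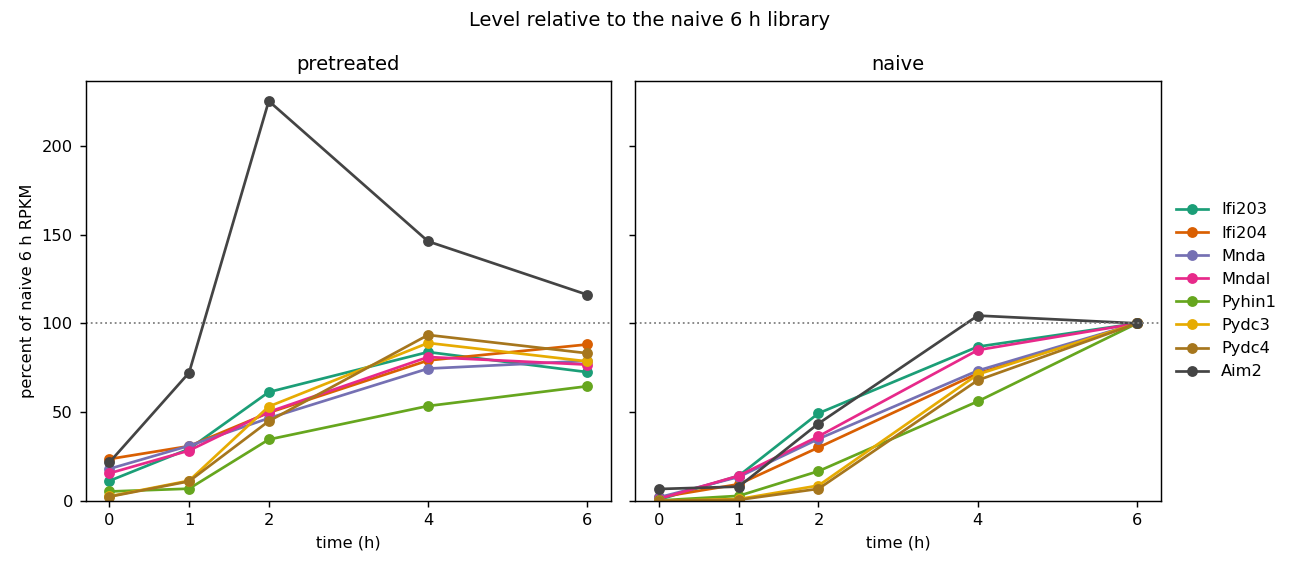
Level of each member as a percentage of its own RPKM in the naive 6 h library (vertical axis, linear from 0) against time in hours, pretreated on the left and naive on the right. Aim2 reaches 225% in the pretreated 2 h library, and the other 7 genes stay below 100% in the pretreated arm.

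Pretreated cells started higher and covered a smaller range. Relative to pretreated 0 h, 3 of 8 members were apart by a fold of 2 or more at 1 h (1.31% of all genes higher), 8 of 8 at 2 h (3.6%), 7 of 8 at 4 h (4.19%) and 7 of 8 at 6 h (3.15%). The 3 at 1 h were Ifi203, Pydc3 and Pydc4. Ratios of pretreated 6 h to pretreated 0 h ran between 3.75 for Ifi204 and 36.1 for Pydc4, and in naive cells the lowest was 15.1, for Aim2. Ifi203, Mndal, Pydc3 and Pydc4 were highest at 4 h in pretreated cells, with 6 h to 4 h ratios of 0.865, 0.947, 0.883 and 0.890, while Ifi204, Mnda and Pyhin1 were highest at 6 h. In edgeR's test of pretreated 4 and 6 h against pretreated 0 h none of the 8 passed, and neither did any of the other genes tested (0% of 12168, lowest adjusted p 0.142). All 8 had an unadjusted p under 0.05, as did 2452 of 12168 genes. The members' log2 fold changes lay between 1.89 ± 0.68 (SE, Ifi204) and 5.32 ± 1.61 (SE, Pydc4). DESeq2 called 7 of 8 higher, Pyhin1 being the exception, and 525 of 12168 genes higher.

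The difference between the arms in the change to 4 and 6 h was tested as an interaction. None of the 8 passed in edgeR, against 0.0822% of all genes (10 of 12168, each with a negative estimate). An unadjusted p under 0.05 was found for 6 of the 8 members and for 667 of 12168 genes. The estimates were negative for 8 of 8, between -1.38 ± 1.51 (SE, Aim2, edgeR adjusted p = 0.9996) and -8.10 ± 2.73 (SE, Pydc3, edgeR adjusted p = 0.750). Mndal had the lowest adjusted p, 0.255, at -4.05 ± 0.81. DESeq2 called 5 of 8, Mnda, Ifi203, Pydc3, Mndal and Ifi204, and 159 of 12168 genes. With the arms paired by hour, edgeR called 6 of 8, these 5 and Pyhin1, each with a negative estimate, and 185 of 12168 genes. This comparison shares its libraries with those above and is not independent of them.

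With both arms in one additive model, the mean of 2, 4 and 6 h was higher than 0 h for 8 of 8 members in edgeR, where 19.9% of all genes were called higher (2421 of 12168) and 20% lower. Aim2 rose by 3.32 ± 0.72 (log2 fold change, SE, edgeR adjusted p = 0.0127), the other 7 between 2.93 ± 0.81 for Ifi204 and 6.54 ± 1.48 for Pydc3. Leaving out the naive 0 h library keeps 1 library at 0 h. The median log2 fold change of the members was then 3.05, against 3.81 with all libraries. The calls were lost in that fit for the members and for nearly all other genes.

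Of the other PYHIN genes of the cluster, 3 passed the filter, and Ifi202b, at up to 0.889 RPKM, did not. Ifi205 measured 20.4, 60.8, 128, 172 and 173 RPKM in pretreated MEFs and 2.47, 26.5, 88.4, 162 and 217 RPKM in naive MEFs at 0, 1, 2, 4 and 6 h. AI607873, called Ifi207 in RefSeq, measured 24.4, 42.2, 187, 105 and 133 RPKM in pretreated MEFs and 0.442, 12.2, 48.3, 136 and 135 RPKM in naive MEFs. Its pretreated 2 h level was above each naive level, the position that Aim2 also held. BC094916, or Ifi214, did not exceed 6.06 RPKM and was listed at 0 in naive 0 h. All 3 rose in naive cells at 4 and 6 h, at edgeR adjusted p-values of 0.0145, 0.0202 and 0.0266 for Ifi205, AI607873 and BC094916.

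**Figure D4:**
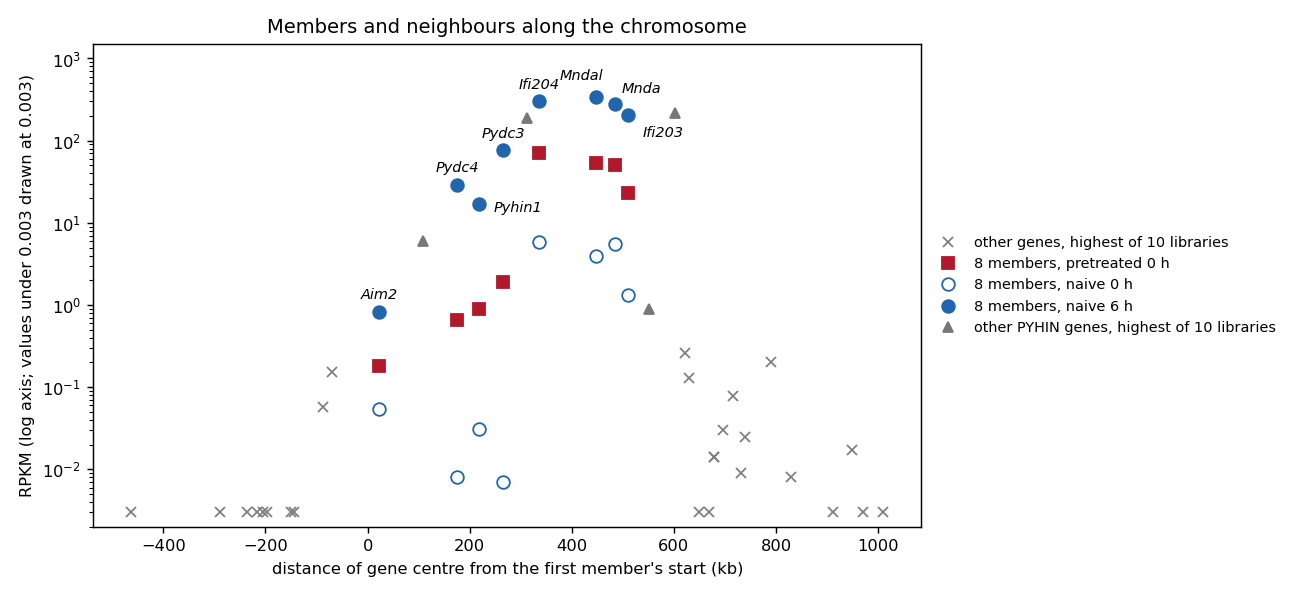
RPKM (log axis) of the members and of genes starting within 500 kb of them, against the distance of the gene centre from the start of Aim2 in kb. Members are shown in pretreated 0 h (squares), naive 0 h (open circles) and naive 6 h (filled circles), other PYHIN genes (triangles) and other genes (crosses) at their highest of 10 libraries. None of the crosses exceeds 0.261 RPKM.

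Around the cluster, genes of other families were low. Of 30 other genes that start within 500 kb of the members' span, 4 were PYHIN genes and 26 were of other kinds, 20 of which were olfactory receptor genes. None of these 26 reached 1 RPKM in any library, and the highest was Olfr433 at 0.261 RPKM. Along the cluster, the members from Ifi204 to Ifi203 were above 1 RPKM in naive cells at 0 h, and those from Aim2 to Pydc3 were at 0.055 RPKM or below.

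Likeness of time course was measured as the root mean square difference of log2(RPKM + 1), centred on each gene's mean, over the 10 libraries. The genes nearest to the members' mean course were Hap1 (0.231), Plscr2 (0.239), Lipg (0.308), Gm8979 (0.314) and Gbp10 (0.315). Of single members, Ifi203 had Gbp7 as nearest gene outside the 8 (0.160), Mndal had Ifi205 (0.251), Pyhin1 had Btc (0.275), Pydc3 had AA467197 (0.561) and Pydc4 had Epsti1 (0.406). Aim2 was nearest to Hrh2 (0.0942), another gene of low level, which measured 0.178, 0.544, 2.16, 1.40 and 1.09 RPKM in pretreated MEFs and 0.061, 0.114, 0.520, 1.18 and 1.18 RPKM in naive MEFs. Within the family the nearest pairs were Ifi204 with Mnda (0.222) and Ifi203 with Mndal (0.242), and Pydc3 had Pydc4 as its nearest member (0.463), with which it shares reads. Ifi204 and Mnda may share reads too, as 30.0% of the 50-base windows of Mnda also occurred in Ifi204. For Ifi203 the sharing was not measured. Aim2 was farthest from the members' mean course (1.19). Its level is low against the pseudocount of 1, which flattens its course on this scale. The share of the distance due to this was not tested.

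**Figure D5:**
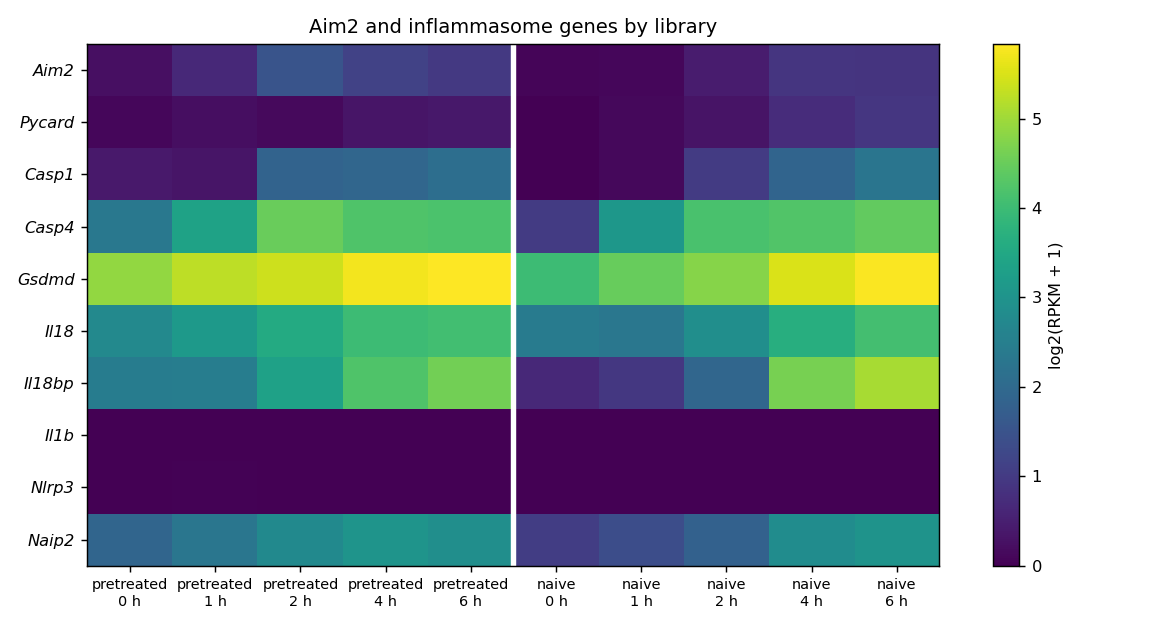
Level as log2(RPKM + 1), by colour, of Aim2 and 9 inflammasome genes (rows) in the 10 libraries (columns, pretreated on the left, naive on the right, each from 0 to 6 h). Casp4, Gsdmd, Il18, Il18bp and Naip2 are brighter at 4 and 6 h than at 0 h in both arms, and Il1b is listed at 0 in every library.

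The partners of AIM2 were unevenly present in these fibroblasts. Of 26 inflammasome and pyroptosis genes measured, 13 passed the filter, and in naive cells at 4 and 6 h edgeR called 5 of the 13 higher and none lower, against 6.18% of all genes higher and 4.68% lower. Gsdmd, the pore-forming target of caspase-1, was at 28.8, 37.0, 41.2, 52.6 and 56.1 RPKM in pretreated MEFs and 14.9, 21.4, 26.4, 44.4 and 54.8 RPKM in naive MEFs, and rose by 1.84 ± 0.23 (log2 fold change, SE, edgeR adjusted p = 0.0100). Casp4, the caspase of the non-canonical pathway, rose by 4.36 ± 0.75 (adjusted p = 0.0190), Il18 by 1.76 ± 0.39 (adjusted p = 0.0344), its binding protein Il18bp by 5.65 ± 0.88 (adjusted p = 0.0152) and Naip2 by 2.69 ± 0.39 (adjusted p = 0.0131), all in edgeR. The 4 most abundant genes of the list, Il1rn, Txnip, Gsdmd and Nek7, included 3 that were not called, Il1rn lying between 248 and 363 RPKM throughout. Casp1 measured 0.310, 0.255, 2.65, 2.83 and 3.33 RPKM in pretreated MEFs and 0, 0.097, 1.03, 2.69 and 3.79 RPKM in naive MEFs, and was called only in the additive model (edgeR adjusted p = 0.0107). Pycard, the adaptor between AIM2 and caspase-1, failed the filter. It was at 0.250 and 0.293 RPKM in pretreated MEFs at 4 and 6 h and at 0.663 and 0.893 RPKM in naive MEFs. The sensor gene Nlrp3 did not exceed 0.017 RPKM. Il1b was listed at 0 in all 10 libraries.

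Among genes of cytosolic DNA sensing and signalling, all 20 measured passed the filter. In naive cells at 4 and 6 h edgeR called 4 higher and 2 lower, against 6.18% and 4.68% of all genes. The median log2 fold change of the 20 was 0.42, against 6.87 for the 8 members and 0.01 over all genes. Trex1, an exonuclease that degrades cytosolic DNA, rose by 2.84 ± 0.19 (SE, edgeR adjusted p = 0.00358) and Zbp1, a nucleic acid sensor, by 6.72 ± 0.83 (adjusted p = 0.0100). Samhd1, a nucleotide hydrolase, rose by 3.62 ± 0.87 (adjusted p = 0.0419) and the kinase gene Ikbke by 1.37 ± 0.16 (adjusted p = 0.00931), in edgeR. The chromatin protein gene Hmgb2 and the DNA repair gene Xrcc6 fell, by 1.23 ± 0.27 and 0.84 ± 0.15 (edgeR adjusted p = 0.0343 and 0.0220). Mb21d1, the gene of the sensor cGAS, was at 4.61, 6.89, 13.2, 4.95 and 4.86 RPKM in pretreated MEFs and 3.72, 7.84, 9.82, 5.97 and 5.30 RPKM in naive MEFs, and Tmem173, the gene of STING, at 34.2, 29.7, 33.3, 28.1 and 32.2 RPKM in pretreated MEFs and 25.6, 58.2, 59.7, 37.2 and 29.4 RPKM in naive MEFs. Neither passed in the naive comparison at 4 and 6 h. In the additive model edgeR called 8 of the 20 higher and 3 lower, against 19.9% and 20% of all genes. Mb21d1 was among those called higher, and Tmem173 was not called.

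Other interferon-induced families give a scale for the difference at 0 h. The median of log2(RPKM + 1), pretreated minus naive, was 2.26 for the 8 members, 2.51 for 10 guanylate-binding protein genes and 5.26 for 5 IFIT genes. A fold of 2 or more was reached by 5 of 8, 7 of 10 and 5 of 5 of these genes, against 2.56% of all genes. By 6 h the medians were -0.34, -0.20 and -0.43. This scale understates the ratios of low genes. In edgeR, which works on counts, the median log2 fold changes at 0 h were 3.95 for the members, 4.89 for the guanylate-binding protein genes and 5.66 for the IFIT genes. Of 6 interferon transcription factor genes tested, Irf9 and Irf7 were called higher at 0 h in pretreated MEFs, by 2.59 ± 0.28 and 6.35 ± 0.60 (SE, edgeR adjusted p = 0.0245 and 0.0131). Of all genes tested, 0.164% were called in that comparison (20 of 12168). The differences between these families were not tested.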

How the data were processed

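RNA of 10 libraries was analysed from 1 table, whose rows are RefSeq transcripts of mm10 per the file headers. Its tag counts were deposited without normalisation, and its RPKM values were scaled by the authors for length and depth. Among tools, the processing notes of the submitters list Cufflinks 1.2.1, Bowtie and TopHat, with no role for any. No source names the counting tool. Of 30646 rows, 15 named no gene (0.0158% to 0.0193% of a library's counts) and were left out. Genes at 1 RPKM or more in at least 2 libraries were tested (12168).

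Counts were tested with edgeR 4.0.16 (R 4.3.3; glmQLFit, glmQLFTest, TMM), with arm by phase (0 h; 1 and 2 h; 4 and 6 h; 4 residual degrees of freedom), and in an additive model of time and arm. In the arm by phase model neighbouring times stood in for replicates, so p-values measure spread between times. In the additive model they measure against the change of the arm difference with time. Neither measures spread between cultures. Two-sided p-values were adjusted over all genes by Benjamini-Hochberg (threshold 0.05). The SE was taken as log2 fold change over the square root of F. Single libraries were compared on log2(RPKM + 1) without a test, and 95% intervals of ratios are exact for counts and cover counting error only. Alternatives used DESeq2 1.42.0, limma 3.58.1, other scaling, no filter, summed transcripts, other phases, leaving out each library and, added after seeing the data, pairing the arms by hour. Named genes were the 8 members, genes within 500 kb, the nearest courses, and of each list the 4 most abundant and those called in at least 2 tests, of which only some are given; the nearest courses of Ifi204 and Mnda are not reported here. The members, lists and tests were chosen with earlier results of these data known.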

Additional observations from a re-analysis of the deposited data

How the results depend on the processing

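The labels give no replicate numbers, and the arms were paired by hour in a fit added after seeing the data (hour as a block). The count of members called changed as follows. For pretreated 0 h against naive 0 h it was 0 in edgeR, 4 with no filter on low values, 6 with DESeq2, 6 with hour as a block, 1 with limma on log2(RPKM + 0.1), and 0 to 4 when a library was left out (4 without naive 1 h or naive 2 h). For pretreated 4 and 6 h against pretreated 0 h it was 0, and 7 with DESeq2. For the difference between the arms in the change it was 0, 1 with no filter, 5 with DESeq2, 6 with hour as a block and 0 to 3 when a library was left out (3 without naive 1 h or naive 2 h). At 1 and 2 h, pretreated against naive, it was 0, 1 with DESeq2 and 5 with hour as a block. For naive 4 and 6 h against naive 0 h it was 7, 7 or 8 under the other alternatives, and 2 to 8 when a library was left out. For 2, 4 and 6 h against 0 h it was 8 under each alternative and 0 to 8 when a library was left out (0 without naive 0 h). At 4 and 6 h, pretreated against naive, it was 0 under each. With a pseudocount of 0.1, members a fold of 2 or more higher numbered 8 and not 5 for pretreated against naive at 1 h, and 7 and not 4 for naive 1 h against naive 0 h. The share of all genes that reached this fold with that pseudocount was not counted. The causes of these shifts were not tested.

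Counts over all genes in edgeR, with the range over the alternatives and then over the left-out libraries, were 20 (19 to 357, 0 to 126) for pretreated against naive at 0 h, 1321 (1278 to 2733, 82 to 2607) for the naive course, 0 (0 to 898, 0 to 80) for the pretreated course, 10 (6 to 185, 0 to 71) for the difference, 37 (38 to 707, 1 to 178) at 1 and 2 h, 1 (1 to 31, 0 to 1) at 4 and 6 h and 4859 (4679 to 5619, 8 to 4983) for the additive model.

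Over 912 refits of all members, called or not, the estimate (log2 fold change) changed sign in 13. Each of these was of a member not called in the main edgeR fit. For the difference between the arms Aim2 was 0.013 with limma on log2(RPKM + 1). When a library was left out, the pretreated against naive estimate at 1 and 2 h ranged over -0.13 (without pretreated 2 h; -0.11 without naive 1 h) to 1.69 for Ifi203 and -0.52 (without pretreated 2 h) to 2.90 for Pyhin1. At 4 and 6 h it ranged over -0.31 to 0.18 for Ifi204, -0.43 to 0.027 for Mnda, -0.30 to 0.20 for Pydc3 and -0.81 to 0.035 for Pyhin1, each highest without naive 6 h, with Pydc3 at 0.065 without pretreated 6 h. Pydc4 ranged over -0.22 (without naive 4 h; -0.09 without pretreated 4 h) to 0.34. With phases of 0 h, 1 h and 2 to 6 h, Ifi204 was 0.070 and Pydc3 0.26. Low counts limit Aim2 (13 counts in naive 0 h), Pyhin1 (10) and Pydc3 and Pydc4 (2 each).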
